A study of Homo sapiens with 13 samples.

Results

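The genes described here are 10 tubulin isotypes, the α-tubulins TUBA1A, TUBA1B, TUBA1C and TUBA4A and the β-tubulins TUBB2A, TUBB2B, TUBB3, TUBB4A, TUBB4B and TUBB6. They were chosen by name from the 67882 genes of the count table, because tubulin is the target of docetaxel. All 10 passed the filter on low counts, which left 15734 genes for testing. Messenger RNA was sequenced from PC3 shTIMP1 cells, a human prostate cancer line that carries a short hairpin RNA against TIMP1, an inhibitor of metalloproteinases. Every group carries that hairpin, the Vehicle controls included, so nothing below describes cells without it. The 13 libraries form 4 groups: Vehicle (3 libraries), Docetaxel at 1 nM (4), Adapalene at 5 µM (3) and Combo (3), which received both drugs. Exposure was 48 h in each group. The doses in Combo are not repeated in the labels. Docetaxel is a taxane that binds β-tubulin in the microtubule wall and stabilises the polymer, while adapalene, a retinoid drug, acts through the nuclear receptors for retinoic acid. The submitters describe the replicates as technical, so the p-values measure only the spread between these libraries.

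Microtubules are hollow polymers of dimers that each hold 1 α- and 1 β-tubulin. Each subunit is encoded by several genes whose proteins are closely alike and differ most in the tail at the carboxyl end, the part that microtubule motors, associated proteins and modifying enzymes meet. Cells also adjust tubulin synthesis at the level of the messenger RNA: when free dimers are abundant, the factor TTC5 recognises the first residues of the new chain on the ribosome and tubulin mRNA is degraded, a process called autoregulation. TUBA1B, TUBA1C and TUBB4B are widely expressed isotypes, while TUBA1A, TUBB2A, TUBB2B, TUBB3 and TUBB4A are best known from neurons and brain.

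The first 24 coding bases of each isotype are shown because the codons in capitals, the first 4, encode the residues that autoregulation reads. They were taken from GENCODE release 29 transcripts (GRCh38) and are written 5′ to 3′ on the coding strand.
TUBA1A: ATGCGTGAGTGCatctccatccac
TUBA1B: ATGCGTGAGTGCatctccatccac
TUBA1C: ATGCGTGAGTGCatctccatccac
TUBA4A: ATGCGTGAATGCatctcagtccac
TUBB2A: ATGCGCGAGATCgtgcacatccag
TUBB2B: ATGCGTGAGATCgtgcacatccag
TUBB3: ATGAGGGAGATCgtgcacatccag
TUBB4A: ATGCGGGAGATCgtgcacctgcag
TUBB4B: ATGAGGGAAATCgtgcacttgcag
TUBB6: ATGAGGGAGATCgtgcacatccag
TUBA1A, TUBA1B and TUBA1C were identical over all 24 bases, and so were TUBB3 and TUBB6. Isotypes with identical starts were not all called alike: TUBA1A was called with adapalene and TUBA1B and TUBA1C were not, and the difference between these genes was not tested.

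The last 60 coding bases before the stop codon encode the tail. They are shown for TUBB2A and TUBB2B, the isotype pair with the most shared sequence, with the base that differs in capitals, and for TUBB4A and TUBB6, which share no stretch of the read length with another gene.
TUBB2A: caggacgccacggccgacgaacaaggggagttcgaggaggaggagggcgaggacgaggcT
TUBB2B: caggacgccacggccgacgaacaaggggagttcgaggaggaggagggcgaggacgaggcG
TUBB4A: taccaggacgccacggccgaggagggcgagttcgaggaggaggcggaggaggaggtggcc
TUBB6: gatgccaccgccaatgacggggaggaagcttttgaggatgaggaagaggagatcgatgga
TUBB2A and TUBB2B differed at 1 of the 60 bases and at 24 of 1335 over the whole coding sequence (98.2% identity). TUBA1A and TUBA1B differed at 38 of 1353 bases over the whole coding sequence. Reads were 120 bp long. Of the windows of that length in the main transcript, 53% in TUBB2A and 43.6% in TUBB2B were also found in another gene's transcripts, mostly in each other's (774 windows). The share was 29.6% for TUBA1B, 13.3% for TUBA1A and 9.2% for TUBA1C, and it was 1.58% for TUBB4B, 0.881% for TUBA4A and 0% for TUBB4A and TUBB6. For TUBB3 it was 88.9%, owing to the read-through gene AC092143.1 on the same strand, which had 0 counts in every library. No source used here says how the authors' counting treated reads that match several genes. The values of TUBB2A, TUBB2B, TUBB3, TUBA1A and TUBA1B are uncertain to that extent.

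**Figure D1:**
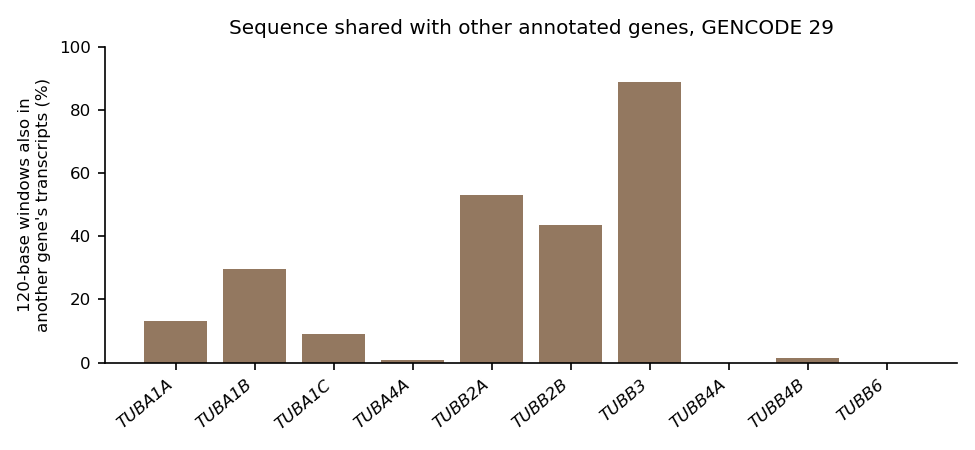
Bars give, for each isotype, the percent of 120-base windows of its main transcript that also occur in a transcript of another annotated gene. TUBB3, TUBB2A and TUBB2B stand highest, and TUBB4A and TUBB6 share none.

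The isotype genes lie on 7 chromosomes (GRCh38, GENCODE 29), and the main transcript of each has 4 exons. TUBA1B (chromosome 12, 49127782 to 49131397), TUBA1A (49184796 to 49189324) and TUBA1C (49188736 to 49274603) are neighbours, and TUBA1A overlaps TUBA1C on the opposite strand. TUBA4A lies on chromosome 2 (219249711 to 219278170) and overlaps TUBA4B and STK16 on the opposite strand. TUBB2A (3153669 to 3157526) and TUBB2B (3224261 to 3231730) are neighbours on chromosome 6. TUBB3 is on chromosome 16 (89921392 to 89938761), TUBB4A on chromosome 19 (6494319 to 6502848), TUBB4B on chromosome 9 (137241213 to 137243707) and TUBB6 on chromosome 18 (12307669 to 12344320). The libraries kept strand, but no source used here gives the strand setting of the counting. Reads of TUBA1A and TUBA1C within their overlap may not have been told apart.

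Between 11948720 and 16235041 counts were assigned per library, and 21836 to 25058 genes had a count. Mitochondrial genes took 0.722 to 2.82% of counts, and over 2% in 4 libraries, namely replicate 4 of Docetaxel and replicate 3 of each other group. The epithelial markers EPCAM, KRT8, KRT18, KRT19 and CDH1 were present in every library. Their summed level was 2925 to 3394 CPM (counts scaled to a common library size) in Vehicle, 2963 to 3881 in Docetaxel, 2423 to 2533 in Adapalene and 2348 to 3088 in Combo, so Adapalene lay below Vehicle without overlap. The prostate antigen KLK3 had at most 1 count per library. Of the 5 neuronal or neuroendocrine markers, CHGA was at 0, STMN2 had at most 1 count, SYP stood at 1.67 to 4.33 CPM, MAP2 at 7.67 to 15.1 CPM and ENO2 at 68.1 to 129 CPM. Their summed level was 82.9 to 102 CPM in Vehicle, 82.5 to 98.5 in Docetaxel, 106 to 146 in Adapalene and 115 to 135 in Combo, and the part of either marker list in the tubulin results was not tested. TIMP1 stood at 54.99 to 64.97 CPM in Vehicle, 56.2 to 71.0 in Docetaxel, 70.4 to 105 in Adapalene and 98.1 to 111 in Combo, with no cells lacking the hairpin to compare.

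Levels are given as CPM scaled by the TMM method of edgeR, and for comparisons between genes as RPKM, which divides by the length of all annotated exons. In Vehicle the order of the α isotypes by RPKM was TUBA1B (428 ± 61.6, SD, n = 3), TUBA1C (140 ± 19.0), TUBA4A (22.0 ± 3.63) and TUBA1A (13.9 ± 1.61). No neighbours in that order overlapped between libraries: the lowest TUBA4A library was at 17.9 RPKM and the highest TUBA1A library at 15.03. Among β isotypes the order was TUBB4B (292 ± 43.6), TUBB4A (19.3 ± 2.48), TUBB2A (12.98 ± 2.34), TUBB6 (11.02 ± 1.90), TUBB2B (0.560 ± 0.048) and TUBB3 (0.367 ± 0.0499). TUBB2A and TUBB6 overlapped, at 10.4 to 14.9 and 8.83 to 12.3 RPKM. Their order turned when the longest transcript was used as the length (14.1 against 21.0). So did the order of TUBB2B and TUBB3 (0.608 against 0.821). TUBB, a widely expressed β isotype that is not among the 10, had only 7 to 17 counts per library. It lies on chromosome 6 (30720201 to 30725426), in the region around the major histocompatibility complex, where 139 of 181 protein-coding genes had 0 counts in all libraries (76.8%, against 13.6% elsewhere), so the β shares below leave it out and are not shares of all β-tubulin.

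Docetaxel against Vehicle asks how a drug that binds tubulin moves the mRNA of its target. TUBB2A and TUBB2B rose and TUBB4A fell with docetaxel, and the most abundant isotypes TUBA1B, TUBA1C and TUBB4B were not called. A gene was called at an edgeR quasi-likelihood p-value, Benjamini-Hochberg adjusted over all genes tested, under 0.05. By that rule 3 of the 10 isotypes were called, 2 higher and 1 lower, against 25.9% of all genes tested (13.2% higher and 12.8% lower), a share near the background. The median log2 fold change of the isotypes was 0.19, against −0.02 over all genes. Of the proliferation genes MKI67, TOP2A, PLK1 and CCNB1, all 4 had estimates below 0 with docetaxel (median −0.21) and 1 was called, TOP2A (−0.67, edgeR adjusted p = 0.000481), and their part in the tubulin result was not tested. In this and every other comparison of bulk RNA, fewer cells that express a gene and less of its RNA per cell cannot be told apart.

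TUBB2A, a major β isotype of brain, had 25.7, 23.6 and 17.9 CPM in the Vehicle libraries (replicates 1 to 3, the order used throughout) and 35.9, 35.6, 40.2 and 33.6 CPM in those of Docetaxel (1 to 4). Every Docetaxel library was above every Vehicle library. The log2 fold change was 0.70 (SE 0.15, edgeR adjusted p = 0.00306), a rise of 62.2%. Its near-copy TUBB2B stood at 1.16, 1.35 and 1.18 CPM in Vehicle (16 to 19 counts) and at 1.92, 2.47, 2.13 and 2.13 CPM with docetaxel (25 to 35 counts). The groups did not overlap here either, on far fewer counts than for TUBB2A. The log2 fold change of TUBB2B was 0.81 (SE 0.23, edgeR adjusted p = 0.0184). That call was lost without Vehicle replicate 1 (edgeR adjusted p = 0.0588), Vehicle replicate 3 (0.0575) or Docetaxel replicate 2 (0.0546). It was also lost without the 4 libraries with over 2% mitochondrial counts (edgeR adjusted p = 0.0532). The log2 fold change was 0.75 to 0.79 in those fits. In the order given, they called 3114 of 16118, 3306 of 16105, 2660 of 15603 and 4391 of 15777 genes, against 4082 of 15734 in the main fit. Reads that match both genes may have been assigned to either or left out, so their sum is also given. It was 23.7 ± 4.07 CPM (SD, n = 3) in Vehicle and 38.5 ± 2.77 (n = 4) with docetaxel. TUBB2A alone averaged 22.4 and 36.3 CPM, so the sum says little about TUBB2B.

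TUBB4A, a β isotype best known from oligodendrocytes and neurons, stood at 65.3, 76.0 and 59.1 CPM in Vehicle and at 50.1, 54.9, 56.5 and 57.1 CPM with docetaxel. Every Docetaxel library was below every Vehicle library, the nearest pair by 1.97 CPM. The log2 change was −0.29 (SE 0.08, edgeR adjusted p = 0.0176), or −18.2%. It was no longer called without Vehicle replicate 2, the highest of its group (−0.19, edgeR adjusted p = 0.122). Nor was it called without Docetaxel replicate 1, the lowest of its group (−0.25, edgeR adjusted p = 0.0624). Calls over all genes fell too, from 4082 of 15734 to 2347 of 16115 and 2790 of 15640 in these fits.

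TUBA1A and TUBB6 also had groups that did not overlap but missed the threshold. TUBA1A, the main α isotype of developing neurons, stood at 41.3, 51.4 and 50.1 CPM in Vehicle and at 52.7, 55.2, 60.8 and 64.6 CPM with docetaxel (log2 fold change 0.29, SE 0.12, edgeR adjusted p = 0.0787). TUBB6, a widely expressed but divergent β isotype, stood at 50.6, 49.1 and 36.4 CPM and at 54.8, 56.1, 56.0 and 50.8 CPM (0.26, SE 0.10, edgeR adjusted p = 0.0699). The nearest TUBB6 libraries of the 2 groups were 0.249 CPM apart. Both were called when the spread was estimated from these 7 libraries alone (edgeR adjusted p of 0.0218 and 0.0406). That brought the count of called isotypes to 5. Over all genes, that fit called 4839 of 15092, against 4082 of 15734 in the main fit. TUBA1A was also called with no filter on low counts (edgeR adjusted p = 0.0377) and without Combo replicate 2 (0.0421). TUBB6 was also called without Vehicle replicate 1 (edgeR adjusted p = 0.0447). In that order, those fits called 4577 of 34568, 4325 of 16098 and 3114 of 16118 genes.

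TUBB3, the neuronal class III β isotype often studied in taxane resistance, stood at 1.59, 1.42 and 1.86 CPM in Vehicle and at 2.06, 3.94, 1.70 and 2.25 CPM with docetaxel, from 20 to 56 counts. Docetaxel replicate 2 was far above the other 3 libraries of its group, and the groups overlapped. The estimate was 0.62 (95% interval −0.04 to 1.27, edgeR adjusted p = 0.155).

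The 3 most abundant isotypes varied together more by library than by group. TUBA1B, the main α isotype of dividing cells, stood at 1649, 1664 and 1275 CPM in Vehicle and at 1423, 1472, 1623 and 1270 CPM with docetaxel. TUBA1C stood at 691, 710 and 549 CPM and at 638, 642, 786 and 574 CPM, and TUBB4B at 682, 656 and 511 CPM and at 614, 630, 731 and 555 CPM. In all 3 genes the lowest library was Vehicle replicate 3 in its group and Docetaxel replicate 4 in its group, which were also the libraries with the highest mitochondrial share of their groups (2.61% and 2.62%). In Adapalene the library with the highest share, replicate 3 (2.82%), was instead the highest of its group for all 3 genes (1387, 628 and 629 CPM). The part of this share in the result was not tested. The 95% intervals of the log2 change were −0.31 to 0.15 for TUBA1B, −0.20 to 0.25 for TUBA1C and −0.19 to 0.26 for TUBB4B. TUBA4A, an α isotype whose coding sequence is 84.4 to 85.7% identical to the other α isotypes, stood at 99.7, 97.1 and 72.9 CPM and at 91.9, 95.2, 120 and 85.3 CPM (interval −0.13 to 0.38).

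**Figure D2:**
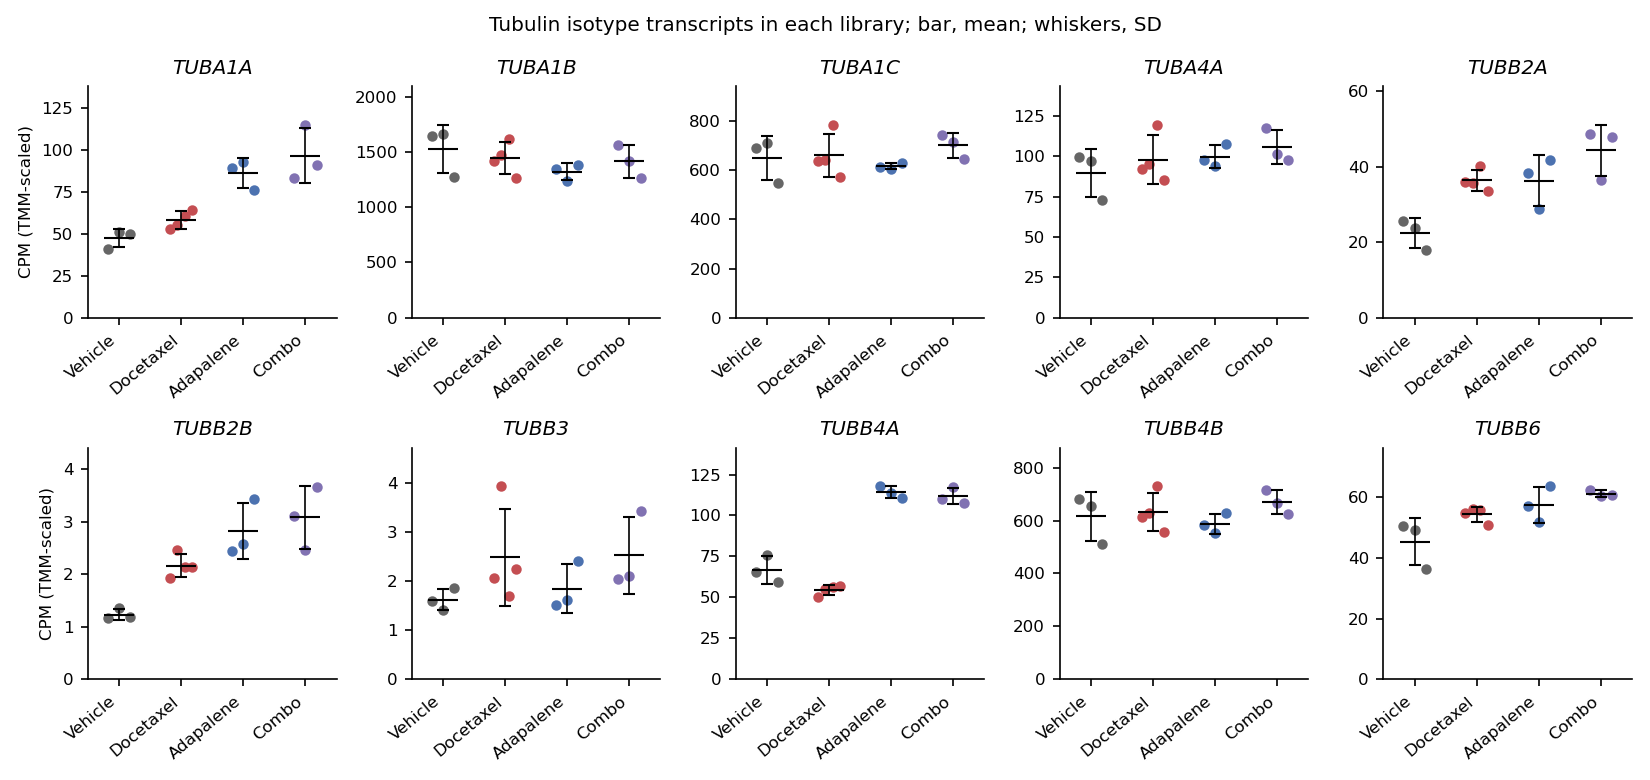
Each panel plots 1 isotype, with CPM on a linear axis from 0, a point for each library, a bar at the group mean and whiskers of 1 SD. TUBB4A separates into a lower pair of groups (Vehicle and Docetaxel, up to 76.0 CPM) and a higher pair (Adapalene and Combo, from 108 CPM), while for TUBA1B, TUBA1C and TUBB4B each treated group overlaps Vehicle.

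With adapalene 5 of the 10 isotypes rose, TUBA1A, TUBB2A, TUBB2B, TUBB4A and TUBB6, and none was called lower. The background in this comparison was 18.4% of all genes called, 9.25% higher and 9.16% lower. The median log2 fold change was 0.26 for the isotypes and 0.02 for all genes. The proliferation genes MKI67, TOP2A, PLK1 and CCNB1 all fell beside them (4 of 4, median log2 change −0.86), and their part in the tubulin result was not tested.

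TUBB4A had the smallest adjusted p-value. It stood at 118, 114 and 111 CPM with adapalene, against 59.1 to 76.0 CPM in Vehicle. All 3 Adapalene libraries lay above all Vehicle libraries with a wide gap (log2 fold change 0.77, SE 0.09, edgeR adjusted p = 7.49e-05). TUBA1A stood at 89.6, 93.1 and 76.5 CPM, against 41.3 to 51.4 CPM in Vehicle, and again the groups were well apart (0.86, SE 0.12, edgeR adjusted p = 0.000444).

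TUBB2B had the largest fold change, at 2.44, 2.58 and 3.42 CPM against 1.16 to 1.35 CPM (1.19, SE 0.24, edgeR adjusted p = 0.00395), on 32 to 41 counts per library. TUBB2A stood at 38.3, 28.7 and 41.7 CPM against 17.9 to 25.7 CPM (0.70, SE 0.15, edgeR adjusted p = 0.00684). Adapalene replicate 2 was the lowest of its group for TUBB2A and still above every Vehicle library. Without the 4 libraries with over 2% mitochondrial counts the TUBB2A estimate fell to 0.44 and was no longer called (edgeR adjusted p = 0.0547).

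TUBB6 stood at 57.3, 51.8 and 63.7 CPM with adapalene against 36.4 to 50.6 CPM (0.35, SE 0.11, edgeR adjusted p = 0.0385). The lowest Adapalene and the highest Vehicle library were 1.22 CPM apart, and Vehicle replicate 3 lay well below the other Vehicle libraries. The call was lost in 9 of 19 alternatives: the estimate was 0.21 without Vehicle replicate 3 (edgeR adjusted p = 0.132), 0.27 without Adapalene replicate 3 (0.123) and 0.13 without the 4 libraries with over 2% mitochondrial counts (0.270). It was also lost with the replicate number as a block (edgeR adjusted p = 0.0534), in the fit of these 6 libraries alone (0.103), and without Vehicle replicate 2 (0.0511), Docetaxel replicate 1 (0.0526), Docetaxel replicate 2 (0.0509) or Adapalene replicate 1 (0.0931).

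The other isotypes were not called with adapalene. TUBA1B stood at 1344, 1236 and 1387 CPM (log2 change −0.21, edgeR adjusted p = 0.223), and without the 4 libraries with over 2% mitochondrial counts it was called lower (−0.36, edgeR adjusted p = 0.0107), which made 3 higher and 1 lower in that fit. TUBA1C stood at 615, 604 and 628 CPM, TUBB4B at 583, 553 and 629 CPM and TUBA4A at 97.5, 94.1 and 108 CPM. Each of these 3 overlapped Vehicle, with 95% intervals of −0.32 to 0.16, −0.31 to 0.18 and −0.12 to 0.43. TUBB3 stood at 1.51, 1.61 and 2.42 CPM, with an interval of −0.56 to 0.90.

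Combo against Vehicle called the same 5 symbols higher, TUBA1A, TUBB2A, TUBB2B, TUBB4A and TUBB6, where 25.8% of all genes were called (13.5% higher and 12.3% lower). The median log2 fold change was 0.53 for the isotypes and 0.02 for all genes. All 3 comparisons with Vehicle share its 3 libraries, so they are not independent of each other. These 5 calls held in all 19 alternatives. The 4 proliferation genes fell here as well (median −0.91), and their part in the tubulin result was not tested.

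TUBA1A stood at 83.5, 115 and 91.4 CPM in Combo (log2 fold change 1.02, SE 0.12, edgeR adjusted p = 7.24e-05), a rise of 103% over Vehicle. TUBB2A stood at 48.6, 36.6 and 47.9 CPM (0.99, SE 0.15, edgeR adjusted p = 0.000402), and TUBB2B at 3.11, 2.47 and 3.66 CPM (1.32, SE 0.24, edgeR adjusted p = 0.00113). Combo replicate 2 was the highest for TUBA1A and the lowest for TUBB2A and TUBB2B, and no Combo library of these genes overlapped Vehicle.

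TUBB4A stood at 110, 117 and 108 CPM (0.74, SE 0.09, edgeR adjusted p = 5.54e-05) and TUBB6 at 62.4, 60.5 and 60.9 CPM (0.44, SE 0.11, edgeR adjusted p = 0.00886). TUBB6 varied less between Combo libraries (SD 1.01 CPM) than between Vehicle libraries (SD 7.82). TUBB3 stood at 2.06, 2.10 and 3.43 CPM, all above Vehicle, with an estimate of 0.62 that was not called (edgeR adjusted p = 0.173). TUBA1B stood at 1567, 1416 and 1269 CPM, TUBA1C at 744, 714 and 645 CPM, TUBB4B at 717, 666 and 625 CPM and TUBA4A at 118, 101 and 97.8 CPM. These 4 overlapped Vehicle, with estimates from −0.11 for TUBA1B to 0.24 for TUBA4A. Combo replicate 3, the library of that group with over 2% mitochondrial counts, was the lowest for each of them, whereas Adapalene replicate 3, likewise over 2%, was the highest of its group for each.

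**Figure D3:**
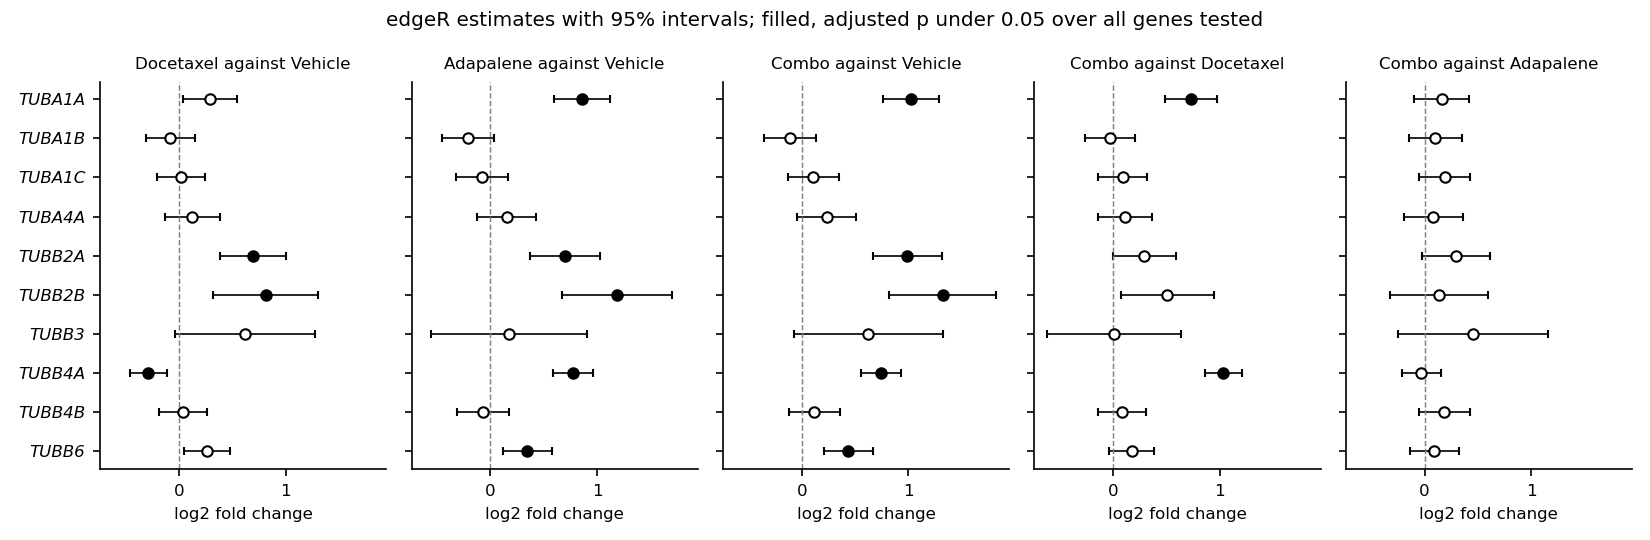
Points are edgeR log2 fold changes of the 10 isotypes in 5 comparisons, with 95% intervals and filled where the adjusted p over all genes tested was under 0.05. TUBB4A lies left of 0 in Docetaxel against Vehicle (−0.29) and right of 0 in Adapalene against Vehicle (0.77), Combo against Vehicle (0.74) and Combo against Docetaxel (1.03), and in Combo against Adapalene all 10 intervals cross 0.

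Combo against Docetaxel asks what adapalene added to docetaxel. TUBA1A and TUBB4A were called higher, 2 of the 10, where 24.0% of all genes were called (12.8% higher and 11.2% lower), so the count is near the background. TUBB4A went from 50.1 to 57.1 CPM in Docetaxel to 108 to 117 CPM in Combo, higher by 1.03 on the log2 scale (SE 0.08, edgeR adjusted p = 2.33e-06). TUBA1A went from 52.7 to 64.6 CPM to 83.5 to 115 CPM (0.73, SE 0.11, edgeR adjusted p = 0.000547). For both genes all Combo libraries lay above all Docetaxel libraries, and both calls held in all 19 alternatives. TUBB2B (0.51, edgeR adjusted p = 0.0837) and TUBB6 (0.17, edgeR adjusted p = 0.230) had groups that did not overlap, TUBB2B by a margin of 0.0011 CPM, and neither was called. TUBB2A was at 0.29 (edgeR adjusted p = 0.138). With no filter on low counts TUBB2A was called (edgeR adjusted p = 0.0416), in a fit that called 3921 of 34568 genes.

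Combo against Adapalene asks what docetaxel added to adapalene. None of the 10 isotypes was called by edgeR, none by DESeq2, and none had an unadjusted p under 0.05 with either tool. Among all genes 6 were called, 0.0381%, and all were higher (0.0381% higher and 0% lower). The isotype with the largest estimate was TUBB3 (0.45, 95% interval −0.246 to 1.152), and the next was TUBB2A (0.29, interval −0.02 to 0.61). The TUBA1C groups did not overlap (604 to 628 CPM against 645 to 744 CPM), with an estimate of 0.19 and an interval of −0.05 to 0.43. The share of all genes whose groups did not overlap is not given, for this or any other comparison. For TUBB4A the interval was −0.21 to 0.15, and it overlapped that of Docetaxel against Vehicle (−0.46 to −0.12). For TUBB2B the interval was −0.33 to 0.59, and it likewise overlapped that of Docetaxel against Vehicle (0.32 to 1.30).

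The interaction tests whether docetaxel had a different effect with adapalene present than without it. No isotype was called by edgeR or DESeq2, against 1.44% of all genes called by edgeR (0.210% higher and 1.23% lower). At an unadjusted p under 0.05 edgeR gave 2 and DESeq2 0. These were TUBB4A (log2 difference of differences 0.26, 95% interval 0.01 to 0.51, edgeR adjusted p = 0.283) and TUBB2B (−0.68, interval −1.35 to −0.0040, edgeR adjusted p = 0.292). The difference between the effect of docetaxel alone and its effect beside adapalene was therefore not shown for any isotype.

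The composition of the isotype mRNA by length shifted between groups, and the sums are given first, in CPM. The 4 α isotypes summed to 2316 ± 321 CPM (SD, n = 3) in Vehicle, 2263 ± 246 (n = 4) in Docetaxel, 2124 ± 87.9 (n = 3) in Adapalene and 2321 ± 206 (n = 3) in Combo. The 6 β isotypes summed to 754 ± 110, 782 ± 77.8, 801 ± 49.7 and 892 ± 47.7 CPM. The α sums of all groups overlapped, and in the β sums Combo (849 to 943 CPM) lay above Vehicle (628 to 826 CPM) without overlap. These sums and the shares below were described and not tested.

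TUBA1B made up 70.8 ± 0.522% of the α RPKM in Vehicle, 68.8 ± 0.956% in Docetaxel, 66.9 ± 1.10% in Adapalene and 65.8 ± 1.21% in Combo. Its share was lower in every treated library than in every Vehicle library. TUBA1A made up 2.35 ± 0.512%, 2.93 ± 0.475%, 4.59 ± 0.637% and 4.73 ± 0.909% in the same order, so it stayed the least abundant α isotype by mean share in Vehicle and Docetaxel and passed TUBA4A (4.43% and 4.30%) in Adapalene and Combo. TUBA1C held 23.2 to 25.2% of the mean α RPKM of each group.

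TUBB4B made up 86.8 ± 0.434% of the β RPKM in Vehicle, 85.2 ± 0.942% in Docetaxel, 80.0 ± 0.533% in Adapalene and 80.9 ± 1.13% in Combo. TUBB4A took 5.77 ± 0.585%, 4.52 ± 0.529%, 9.49 ± 0.789% and 8.24 ± 0.561%. TUBB2A took 3.85 ± 0.160%, 6.01 ± 0.188%, 5.99 ± 0.768% and 6.56 ± 1.00%. By these shares TUBB2A passed TUBB4A with docetaxel as the second β isotype measured. With the longest transcript as the length, TUBB6 was second there (6.61%, against 5.97% for TUBB2A). With adapalene or both drugs TUBB4A was the second by mean share. TUBB2B and TUBB3 each stayed under 0.4% in the mean of every group.

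**Figure D4:**
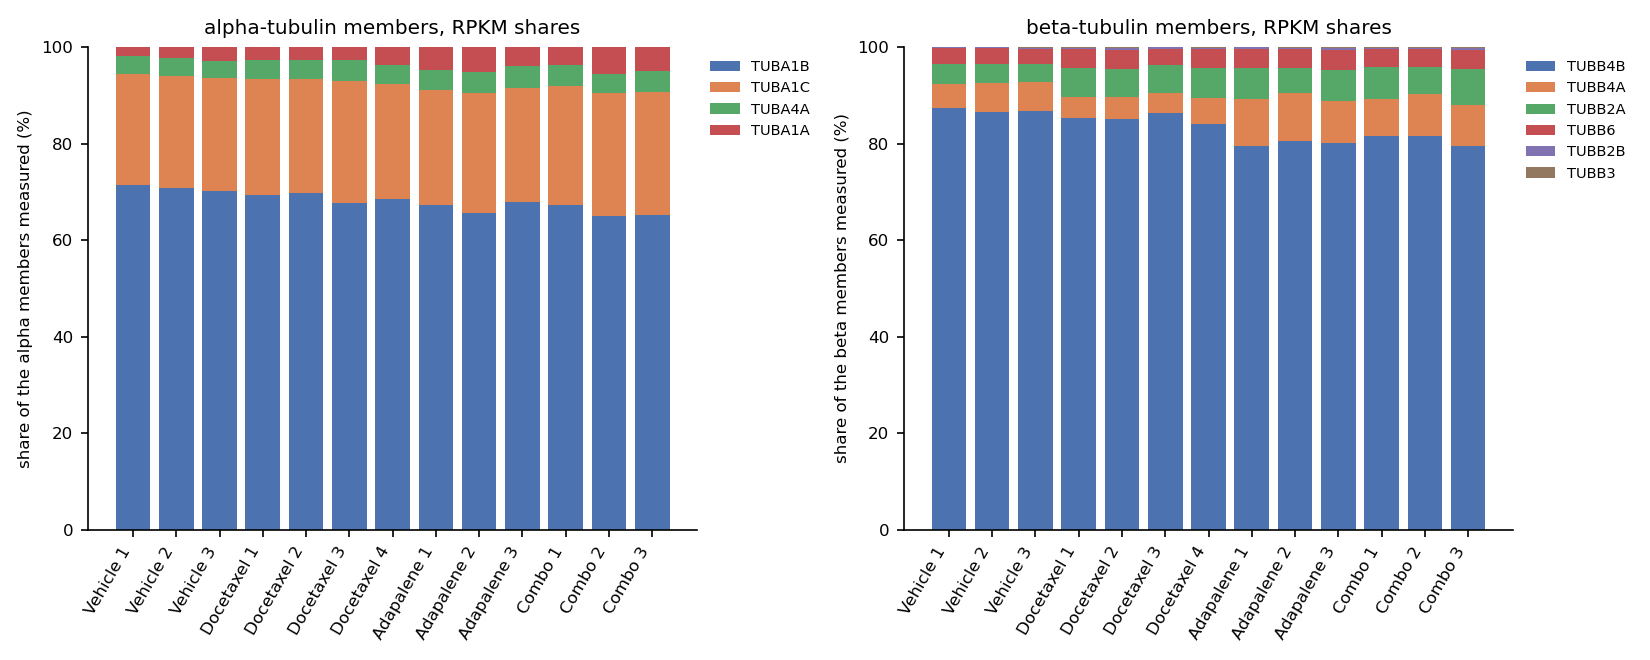
Stacked bars give the percent of the summed RPKM of the 4 α isotypes (left) and of the 6 β isotypes (right) in each of the 13 libraries, without TUBB. TUBA1B and TUBB4B fill most of every bar, and their shares were smaller in Adapalene (66.9% and 80.0% on average) and Combo (65.8% and 80.9%) than in Vehicle (70.8% and 86.8%).

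Over the 13 libraries the isotypes fell into pairs that varied together on the log2 CPM scale. These values describe libraries that share group means and depth, and carry no test. TUBA1C and TUBB4B had the highest Pearson r (0.96), followed by TUBB2A and TUBB6 (0.92), TUBA4A and TUBB4B (0.88) and TUBB2A and TUBB2B (0.87). TUBA1A went with TUBB4A (0.84) more than with its neighbour TUBA1B (−0.46).

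The genes most like TUBB4A, among 9765 with a mean of at least 10 CPM, were DNASE2, a lysosomal nuclease (r = 0.98), EPHX1, an epoxide hydrolase (0.98), and MDK, a secreted growth factor that retinoids are known to induce (0.98). MDK averaged 51.8 CPM in Vehicle, 48.3 in Docetaxel, 82.4 in Adapalene and 83.0 in Combo. Those most like TUBA1A were RBCK1, a ubiquitin ligase subunit (0.97), LGALS3, a galectin (0.96), and GLRX, a glutaredoxin (0.96). Those most like TUBB2B were MAP3K9-DT, a divergent transcript (0.96), GABARAPL1, an autophagy protein (0.95), and CD70, a ligand of the tumour necrosis factor family (0.95). GABARAPL1 averaged 13.5, 27.3, 29.7 and 34.3 CPM in the 4 groups in the order above, each treated mean above Vehicle as for TUBB2B.

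Of 12 other tubulins, 5 were tested. With docetaxel only TUBG1 of these was called: this gene for γ-tubulin, which nucleates microtubules, went from 118 ± 13.3 CPM (n = 3) to 98.6 ± 8.54 CPM (n = 4), a log2 change of −0.26 (SE 0.09, edgeR adjusted p = 0.0322). With adapalene and with Combo the 1 called gene was TUBG2, the second γ-tubulin gene, which was higher (0.58 and 0.52, edgeR adjusted p = 0.0220 and 0.0271). In Combo against Docetaxel TUBG1 and TUBG2 were both called higher (0.31 and 0.51). Over all genes 25.9% were called with docetaxel, 18.4% with adapalene, 25.8% with Combo and 24.0% in Combo against Docetaxel. With 5 genes tested, these counts are too small to set apart from those shares.

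Folding factors bring new tubulin into the dimer: prefoldin and the chaperonin CCT fold the chain and the cofactors TBCA to TBCE assemble it. Of 21 tested, 1 was called higher and 1 lower with docetaxel, against 13.2% and 12.8% of all genes, with a median log2 change of −0.03. TBCD, the cofactor that holds β-tubulin, went from 83.5 ± 6.65 CPM to 53.4 ± 3.79 CPM (−0.65, SE 0.09, edgeR adjusted p = 0.000180). TBCC, which triggers release of the finished dimer, went from 28.5 ± 1.67 CPM to 35.9 ± 2.29 CPM (0.33, SE 0.08, edgeR adjusted p = 0.00976).

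With adapalene 8 folding factors were lower and 1, TBCC, was higher, against 9.16% and 9.25% of all genes, and the median was −0.27 against 0.02. With Combo 9 were lower and 1 higher (median −0.26), against 12.3% and 13.5% of all genes. In Combo against Docetaxel 8 were lower and 1, TBCD, higher, against 11.2% and 12.8%. The subunits of CCT were singled out after their values were seen: 6 of the 8 were called lower with adapalene, 6 with Combo and 4 in Combo against Docetaxel. In Adapalene and Combo against Vehicle these ranged from CCT5 (−0.47 and −0.51) to CCT8 (−0.28 and −0.29), and CCT3 and CCT7 were not called. None of the 8 was called by edgeR with docetaxel, where their log2 changes were −0.14 to −0.0049. The fall of the proliferation genes in the same libraries stands above, and its part in these changes was not tested either. TBCD was the 1 folding factor whose interaction was called (0.61, SE 0.13, edgeR adjusted p = 0.0367).

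The autoregulation list holds TTC5, its partner SCAPER and the CCR4-NOT deadenylase, and all 13 were tested. TTC5 was at 0.03 and SCAPER at −0.04 on the log2 scale with docetaxel, and neither was called (edgeR adjusted p = 0.865 and 0.842). These 2 were singled out for their role. With docetaxel 1 gene was higher and 3 were lower, a share near the 25.9% of all genes called. CNOT4, a ubiquitin ligase that associates with the complex, rose from 29.7 ± 3.07 to 46.9 ± 2.03 CPM (0.66, SE 0.10, edgeR adjusted p = 0.000387). CNOT6L, a catalytic deadenylase, fell from 24.3 ± 1.99 to 16.3 ± 2.20 CPM (edgeR adjusted p = 0.00324), and CNOT11, a subunit of the complex, from 72.2 ± 2.60 to 56.6 ± 2.28 CPM (edgeR adjusted p = 0.00153). With adapalene 0 were higher and 3 lower (9.25% and 9.16% of all genes), and with Combo 0 and 5 (13.5% and 12.3%). TTC5 was called in Combo against Docetaxel (−0.30, edgeR adjusted p = 0.0418), where 3 of the list were lower.

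Modifying enzymes add or remove chemical groups and amino acids on tubulin, most of them at the tails, while acetylation is on the luminal side of α-tubulin. Of 23 listed, 19 were tested. ATAT1, the acetyltransferase of α-tubulin, had 0 counts in every library and lies within the region of chromosome 6 described for TUBB. With docetaxel 4 were lower and 0 higher, where 12.8% of all genes were lower and 25.9% were called in all, so the count is near the background. The median was −0.24 against −0.02 over all genes. VASH1, which removes the last tyrosine of α-tubulin, went from 14.9 ± 1.34 to 8.46 ± 0.977 CPM (−0.82, SE 0.15, edgeR adjusted p = 0.00157). VASH2, its paralog, went from 6.87 ± 0.750 to 4.62 ± 0.0734 CPM (−0.57, edgeR adjusted p = 0.00531). TTLL11, a polyglutamylase, went from 144 ± 11.6 to 82.9 ± 9.49 CPM (−0.80, edgeR adjusted p = 0.000387). The fourth was HDAC6, a deacetylase of α-tubulin (−0.44, edgeR adjusted p = 0.0160).

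All 4 were higher in Combo than in Docetaxel: VASH1 by 0.81, TTLL11 by 0.46, VASH2 by 0.40 and HDAC6 by 0.38 (edgeR adjusted p = 0.00217, 0.0149, 0.0355 and 0.0322). In that comparison 8 of the 19 were called higher and 2 lower, against 12.8% and 11.2% of all genes. The lower ones were TTL, the ligase that restores the tyrosine (−0.23), and SVBP, the partner that the vasohibins need (−0.84). Combo against Vehicle did not call any of the 4, with VASH1 at −0.01 and TTLL11 at −0.34 (edgeR adjusted p = 0.966 and 0.0747). With adapalene 1 enzyme was higher and 2 were lower, and with Combo likewise, where 18.4% and 25.8% of all genes were called. The higher one was TTLL6, a glutamylase at a mean of 2.38 CPM (1.31 and 1.38), and the lower ones were TTL (−0.26 and −0.30) and SVBP (−0.54 and −0.66). Docetaxel against Vehicle and Combo against Docetaxel share the 4 Docetaxel libraries, so opposite signs in them are not independent, and no interaction was called for these enzymes by edgeR or DESeq2 (2 at an unadjusted p under 0.05 with each).

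The γ-tubulin ring complex nucleates microtubules, and all 15 of its subunits and recruiters were tested, TUBG1 and TUBG2 among them. With docetaxel 4 were lower and 0 higher (median −0.23), again a share near the 25.9% of all genes called. Beside TUBG1 these were TUBGCP6 (48.4 ± 6.86 to 36.1 ± 4.98 CPM, edgeR adjusted p = 0.0321), TUBGCP3 (33.9 ± 3.28 to 26.5 ± 1.35 CPM, 0.0194) and TUBGCP4 (135 ± 10.5 to 112 ± 2.33 CPM, 0.0153), each a core subunit. With adapalene 1 was higher and 3 were lower, and with Combo 1 and 5, where 18.4% and 25.8% of all genes were called. In Combo against Adapalene edgeR and DESeq2 called none of the genes in these 5 lists. At an unadjusted p under 0.05 each tool gave 4 modifying enzymes and 1 gene of the ring complex there, and 0 in the other 3 lists.

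**Figure D5:**
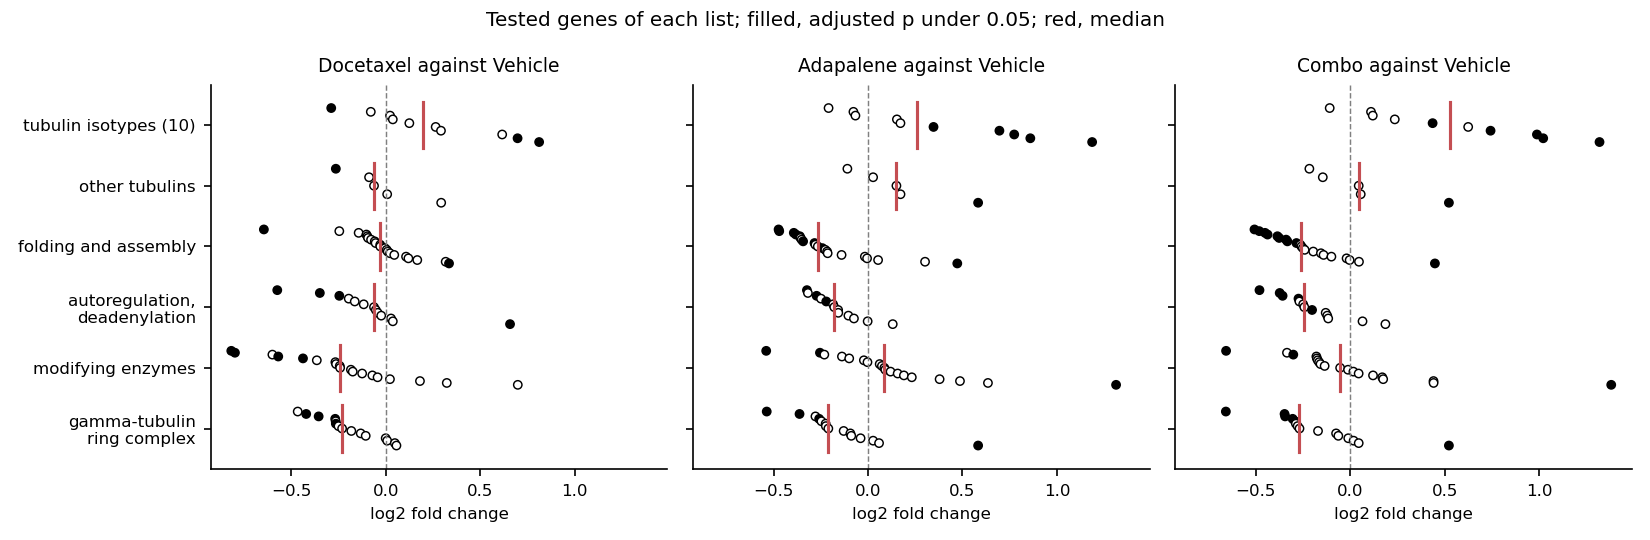
Each point is a tested gene, placed by its edgeR log2 fold change against Vehicle and filled where the adjusted p was under 0.05, with a red line at the median of its list. The 10 tubulin isotypes had medians of 0.19, 0.26 and 0.53 in the 3 panels, while the folding factors lay at −0.03, −0.27 and −0.26.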

How the data were processed

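Per the labels' protocols, polyadenylated RNA was made into strand-preserving libraries and read as single ends of 120 bp. FastQC, STAR 2.7.10a, DESeq2 and GRCh38.p13 are named in the submitters' processing notes, without the role of each. The counting program is not given in the sources consulted. The authors deposited raw counts for each gene and library. Of its 67882 identifiers, 61369 matched a symbol.

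Differences were tested with edgeR 4.0.16 (R 4.3.3). Genes were filtered with filterByExpr by group (minimum count 10, minimum total 15), TMM gave the scaling, and the quasi-likelihood fit used 4 group means over all 13 libraries. P-values were adjusted by the Benjamini-Hochberg method over the 15734 genes tested in each of 6 comparisons, with a threshold of 0.05. CPM and RPKM values were computed here from the deposited counts, RPKM with the union of annotated exons of GENCODE 29. The procedure was tested on simulated data. The planted changes were larger than many of those called here, so smaller changes were not covered. Alternatives were DESeq2 1.42.0, RLE scaling, no filter, a replicate block, the 2 groups alone and each library left out. A fit without the 4 libraries with over 2% mitochondrial counts was added after seeing the data.

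The 10 genes and the gene lists were chosen with earlier results of these data known. All 10 genes are named, and from each list up to 3 called genes with the largest change in Docetaxel against Vehicle or Combo against Adapalene. Other named genes were chosen after their values were seen. The 3 genes most like each of the 3 isotypes with the largest called changes are given by Pearson's r over log2 CPM. No 2 libraries of a group agreed within sampling noise (chi-square per degree of freedom 2.24 to 21.1 over 15 pairs). Between Vehicle and Combo, libraries of the same number deviated together (r of 0.159 to 0.257). Libraries of different numbers were not compared, so this does not show that the numbers pair the libraries. The main tests used group means without pairing, and the replicate number entered only in the block alternative. No other comparison had all its pairs above 0.1, but single pairs lay further from 0. The r was 0.0202 to 0.529 in Combo against Adapalene and −0.312 to 0.0997 in Combo against Docetaxel.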

Additional observations from a re-analysis of the deposited data

How the results depend on the processing

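Of the 15 calls, 11 held in all 19 alternatives, and the other 4 (TUBB2B and TUBB4A in Docetaxel against Vehicle, TUBB2A and TUBB6 in Adapalene against Vehicle) were lost in the settings named above. TUBB2B was also lost with no filter on low counts (edgeR adjusted p of 0.0149 to 0.0635 over its alternatives). The count for Docetaxel against Vehicle was 5 with only the libraries of the 2 groups, where TUBA1A and TUBB6 were added. Calls over all genes also rose in that fit, to 4839 of 15092 from 4082 of 15734, and the cause was not tested. Leaving out 1 library gave 2 to 4 calls for Docetaxel against Vehicle, 4 to 5 for Adapalene against Vehicle, 5 for Combo against Vehicle, 2 for Combo against Docetaxel and 0 for the other 2. Under the replicate block the counts were 3, 4, 5, 2, 0 and 0, and the block changed no call other than TUBB6 with adapalene. With 1 library left out, calls over all genes ranged from 2347 to 4680 for Docetaxel against Vehicle (4082 in the main fit). For Adapalene against Vehicle they ranged from 1494 to 3149 (2896 in the main fit).

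No called value changed sign. Signs turned only in values that were not called. For TUBB3 in Combo against Docetaxel the value was −0.0057 with RLE scaling, −0.052 with the block, −0.0023 with DESeq2 and −0.32 without the 4 libraries. For TUBA1C in Docetaxel against Vehicle it was −0.00085 with no filter and −0.026 without the 4 libraries. Without the 4 libraries TUBB4B was at −0.025 in Docetaxel against Vehicle, TUBA4A at −0.038 in Adapalene against Vehicle, and in the interaction TUBA4A was at 0.14 and TUBB6 at 0.014. The causes were not tested. With 1 library left out, values that turned ranged in Docetaxel against Vehicle from −0.089 to 0.087 for TUBA1C, −0.011 to 0.20 for TUBA4A and −0.085 to 0.11 for TUBB4B. They ranged in Adapalene against Vehicle from −0.066 to 0.30 for TUBB3 and −0.19 to 0.0090 for TUBB4B, and in Combo against Vehicle from −0.0019 to 0.17 for TUBA1C and −0.0027 to 0.19 for TUBB4B. The ranges were −0.13 to 0.045 for TUBA1B and −0.27 to 0.31 for TUBB3 in Combo against Docetaxel, and −0.0054 to 0.14 for TUBA4A and −0.0021 to 0.29 for TUBB2B in Combo against Adapalene. In the interaction they were −0.14 to 0.093 for TUBA4A and −0.44 to 0.14 for TUBB3.

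With the longest transcript as the length, which by construction rescales every gene, shares in Vehicle were 63.2% for TUBA1B, 28.7% for TUBA1C, 4.75% for TUBA4A, 3.35% for TUBA1A, 82.8% for TUBB4B, 7.20% for TUBB4A, 5.72% for TUBB6 and 0.231% for TUBB3. In Docetaxel, Adapalene and Combo they were 61.0, 58.7 and 57.5% for TUBA1B, 4.14, 6.43 and 6.60% for TUBA1A, 81.2, 75.0 and 76.2% for TUBB4B, and 5.64, 11.6 and 10.2% for TUBB4A. Under that length TUBB6 (6.61%) was the second β isotype in Docetaxel by mean share, above TUBB2A (5.97%). In Vehicle TUBB2B took 0.168% under that length, below TUBB3. TUBB2B and TUBB3 rest on 16 to 56 counts per library. Whether depth or the treatment of reads that match several genes keeps these counts low was not tested.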
